A study of Rattus norvegicus with 65 samples.

Results

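Traf3ip2 encodes the adaptor protein Act1. The gene was selected from its measured pattern in these tumors, in which it was lower in transplants than in primary tumors, so its own levels are given below as a description with no test. All probe sets annotated to Traf3ip2 were taken, which gave 1 of 15866 probe sets (1374671_at) and 1 of 10411 measured genes, of which 8499 passed a filter on low values. The platform annotation gives this probe set 1 gene symbol. The rat reference annotation also lists a pseudogene, Traf3ip2-ps1, on chromosome 5, and whether the probes match it was not tested.

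The tumors fell into 6 generations of 11 lines. There were 11 tumors at each of transplants 1 to 4 and 10 at transplant 5, grown in syngeneic rats, against 11 primary rat mammary tumors induced by a carcinogen that the labels do not name. Each line is called a series by its label (10, 13, 17, 19, 25L, 25R, 32, 33, 34, 36 and 42), and series 10 is followed here to transplant 4. Each array holds RNA of 1 whole tumor, so host cells are part of every sample, and strain, age and invasive phenotype per tumor are not given in the labels. The labels do not say whether series 25L and 25R came from 1 rat.

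Act1 binds the receptors for interleukin 17 through a domain shared by both, and passes the signal on through TRAF proteins to NF-kB, MAP kinases and C/EBP factors. It also protects the messenger RNAs of some inflammatory targets from decay. In B cells of the mouse the same protein restrains signalling from CD40 and the BAFF receptor, and epithelial cells are a main site of its interleukin 17 role.

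Levels are log2 intensities after each array was scaled to a common median intensity of 162, with values under 39.8 (log2 of 5.31) raised to that floor. None of the 65 arrays had Traf3ip2 at the floor. The median intensity per array before scaling was 143 to 176, except 96.1 in the transplant 5 tumor of series 32. The values carry no read depth, so the number of arrays limits their precision.

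The promoter of Traf3ip2 is shown beside that of Rev3l, because Rev3l is the next measured gene along chromosome 20 and the gene whose level moved most closely with Traf3ip2. Both are RefSeq windows on assembly GRCr8, + strand, at chr20:44565787-44566086 for Traf3ip2 and chr20:44686690-44686989 for Rev3l. Capitals mark matches to the motifs searched.
Traf3ip2: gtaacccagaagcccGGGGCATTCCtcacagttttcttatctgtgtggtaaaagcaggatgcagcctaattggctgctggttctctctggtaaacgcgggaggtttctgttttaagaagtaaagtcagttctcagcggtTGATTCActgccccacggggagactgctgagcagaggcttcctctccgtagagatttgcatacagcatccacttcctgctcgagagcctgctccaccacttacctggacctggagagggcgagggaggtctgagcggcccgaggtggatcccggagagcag
Rev3l: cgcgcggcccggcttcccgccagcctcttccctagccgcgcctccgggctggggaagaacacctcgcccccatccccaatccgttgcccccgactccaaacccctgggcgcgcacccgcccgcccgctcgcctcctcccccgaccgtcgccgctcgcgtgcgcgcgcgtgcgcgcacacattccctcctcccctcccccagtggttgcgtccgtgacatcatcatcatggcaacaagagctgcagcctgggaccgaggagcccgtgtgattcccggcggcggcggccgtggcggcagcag
The Traf3ip2 window holds 1 match to the NF-kB consensus, starting at position -235 relative to the gene's start. It also holds 1 match to TGANTCA, a loose pattern for AP-1 sites that allows any middle base, starting at position -111. The middle base of that match is T, and binding of AP-1 factors was not tested. The Rev3l window holds neither. On both strands, 7.51% of 33469 rat promoters of this length hold the NF-kB consensus and 7.33% hold TGANTCA. The other motifs searched were in neither window. They were the TATA box (TATAAA, in 14.2% of promoters), the C/EBP site (TTGCNNAA, in 10.6%), the E-box (CACGTG, in 6.42%) and the ETS site (CCGGAAG, in 8.75%). GC content is 55.3% with 11 CpG for Traf3ip2 and 73.3% with 39 CpG for Rev3l, against medians of 51.7% and 7 CpG over all promoters.

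Traf3ip2 was lower in the transplants than in the primary tumor of the same line in 11 of 11 lines. In the 54 transplants its log2 level had a lowest value of 6.02, a median of 7.35 and a highest value of 8.61, and in the 11 primary tumors it had a lowest value of 6.87, a median of 8.33 and a highest value of 9.76. The groups overlap, but 5 primary tumors (series 13, 17, 25L, 25R and 32) lay above all 54 transplants, and 2 transplants lay above the primary median. Within lines, the primary tumor lay above every transplant of its own line in 9 of 11 series, and in series 34 and 36 it did not.

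**Figure D1:**
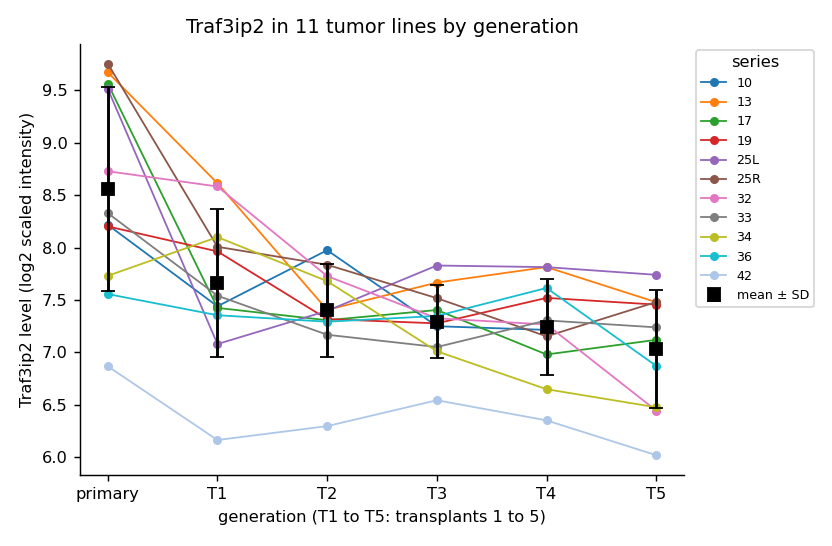
Traf3ip2 level (log2 scaled intensity) in 11 tumor lines from the primary tumor to transplant 5, with a coloured line for each series and black squares with bars for the mean ± SD of each generation (n = 11, and 10 at transplant 5). The spread between lines is wide among primary tumors (SD 0.97) and narrower at transplant 3 (SD 0.35), and series 42 is the lowest line in every generation.

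By generation, Traf3ip2 averaged 8.56 ± 0.97 in primary tumors, 7.66 ± 0.70 at transplant 1, 7.40 ± 0.45 at transplant 2, 7.29 ± 0.35 at transplant 3, 7.24 ± 0.46 at transplant 4 (SD, n = 11 each) and 7.03 ± 0.56 at transplant 5 (SD, n = 10). The step at transplant 1 was the widest, with a within-line difference of -0.90 ± 0.88 from the primary tumor (SD, 11 lines), lower in 10 of 11 lines. Each later step was smaller than the SD of its own within-line differences. These steps were -0.26 ± 0.51 from transplant 1 to 2, -0.11 ± 0.38 from 2 to 3, -0.05 ± 0.26 from 3 to 4 (SD, 11 lines each) and -0.21 ± 0.36 from 4 to 5 (SD, 10 lines).

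The 11 lines differed in how far Traf3ip2 lay below its primary level. The widest gap was in series 17, with log2 levels of 7.42, 7.31, 7.40, 6.98 and 7.12 at transplants 1 to 5, against 9.56 in its primary tumor. On the linear scale those 5 transplants held scaled intensities of 126 to 172, against 757 in the primary tumor, and the mean log2 difference of -2.32 is a 4.99-fold lower level. Series 25R had 8.01, 7.84, 7.52, 7.15 and 7.48 in its transplants, against 9.76 in its primary tumor. Series 25L had 7.08, 7.40, 7.83, 7.81 and 7.74, against 9.52 in its primary tumor. Series 13 had 8.61, 7.41, 7.67, 7.81 and 7.48, against 9.67 in its primary tumor. In these 4 series the mean log2 difference of transplants minus primary was between -1.88 and -2.32, and all 5 transplants lay below the primary tumor.

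Series 32 and 34 had the steepest falls over the transplants. Series 32 had 8.58, 7.73, 7.32, 7.27 and 6.44 at transplants 1 to 5, against 8.73 in its primary tumor. Series 34 had 8.10, 7.68, 7.01, 6.65 and 6.48, against 7.73 in its primary tumor, so that its transplant 1 was above its primary tumor and its transplant 5 below it. Slopes over the transplants were -0.47 log2 per transplant in series 32 and -0.43 in series 34, and between -0.19 and 0.17 in the other 9 lines. The transplant 5 array of series 32 is the one with the low median intensity of 96.1 before scaling.

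Of the other 5 lines, series 33 had 7.54, 7.17, 7.05, 7.30 and 7.24, against 8.33 in its primary tumor. Series 10 had 7.44, 7.97, 7.25 and 7.21 at transplants 1 to 4, against 8.22 in its primary tumor. Series 19 had 7.96, 7.32, 7.28, 7.52 and 7.46, against 8.20 in its primary tumor. In these 3 lines every transplant lay below the primary tumor, with mean differences of -1.07, -0.75 and -0.70. Series 42 had 6.16, 6.30, 6.54, 6.35 and 6.02, against 6.87 in its primary tumor, which is the lowest primary level. Series 36 had 7.35, 7.29, 7.35, 7.61 and 6.87, against 7.56 in its primary tumor, the smallest mean gap at -0.26 with overlap between the groups.

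The SD over lines at each transplant, 0.70, 0.45, 0.35, 0.46 and 0.56 at transplants 1 to 5, was smaller than the 0.97 of the primary tumors, a difference that was not tested. In order from low to high the transplant means were 6.27 in series 42, 7.18 in series 34, 7.25 in series 17, 7.26 in series 33, 7.30 in series 36, 7.47 in series 32 and in series 10, 7.51 in series 19, 7.57 in series 25L, 7.60 in series 25R and 7.80 in series 13. Apart from the gap above series 42, neighbours in this order differed by less than the SD among the transplants of either line. Of the variance of Traf3ip2 over all arrays, 41.4% lay between generations, 33.4% between lines and 25.2% in the remainder, against medians of 6.06%, 43.0% and 49.3% over the 8499 genes. Since Traf3ip2 was selected for its gap between transplants and primary tumors, a high share between generations follows from that selection.

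In a limma fit of all 65 arrays with generation and line as factors, the log2 difference of Traf3ip2 was -1.23 ± 0.14 (SE) for the mean of transplants minus primary, a 2.35-fold lower level. For transplant 5 minus primary it was -1.53 ± 0.19 (SE), a 2.88-fold lower level. In both comparisons its difference divided by its SE ranked 1 of 8499 in size, and by the size of the log2 difference alone it ranked 21 and 30 among genes lower in the transplants. The slope over transplants 1 to 5 was -0.14 ± 0.04 (SE) per transplant, rank 303. These comparisons served to select the gene, so the ranks only describe how it was found. The fit counts each transplant of a line as a separate array. With 1 value per line the difference of transplants minus primary was -1.22 ± 0.20 (SE). With arrays weighted by their fit it was -0.95 ± 0.14 (SE). With the ratio of 3' to 5' Gapdh probe sets, a measure of RNA integrity, as a covariate it was -1.15 ± 0.15 (SE).

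That ratio moved with Traf3ip2 among primary tumors. The log2 ratio of 3' to 5' Gapdh had a lowest value of -0.08, a median of 0.15 and a highest value of 0.33 in transplants, and -0.18, 0.05 and 0.38 in primary tumors. Its Pearson r with Traf3ip2 was -0.73 over 11 primary tumors (Spearman rho -0.67), and 0.10 over 54 transplants after the mean of each line was removed. The median intensity of the array before scaling had an r of 0.63 with Traf3ip2 over the 11 primary tumors (rho 0.40) and 0.47 over the transplants. The part of either in the levels among primary tumors was not tested.

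The mammary label was set against 11 epithelial genes, of which 10 were measured (Epcam, Krt8, Krt18, Krt19, Cdh1, Cldn3, Cldn4, Cldn7, Elf3 and St14). Their summed scaled intensity was 704 to 20780 in transplants, against 727 to 25390 in primary tumors. Series 42 lacked them in every generation, with an Epcam mean of 5.32 over its transplants, against 6.00 in its primary tumor, both close to the floor of 5.31. Series 32 and 34 had them in the primary tumor and not at transplant 5, where their epithelial means were 5.87 and 5.82, against 10.86 and 10.70 in their primary tumors. In whole tumors, fewer cells of a type and less RNA per cell cannot be told apart.

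Traf3ip2 moved with these epithelial genes among transplants. Over the 54 transplants, with each line's mean removed, Pearson r between Traf3ip2 and the epithelial mean was 0.76 (rho 0.67), and it was 0.48 (rho 0.47) over 44 transplants without series 32 and 34. Over the 11 primary tumors r was 0.52 (rho 0.20). At transplant 5 the 3 lowest Traf3ip2 levels, 6.02 in series 42, 6.44 in series 32 and 6.48 in series 34, were those of the 3 tumors with epithelial means of 5.76 to 5.87. The other 7 had Traf3ip2 at 6.87 to 7.74 and epithelial means of 8.08 to 10.47.

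**Figure D2:**
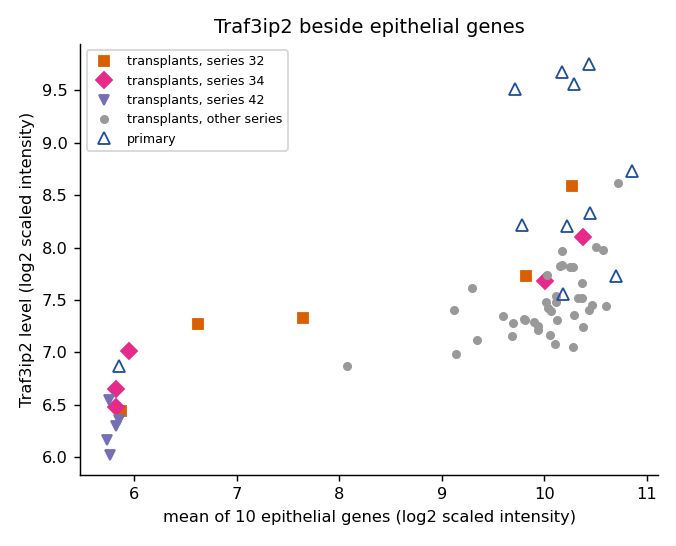
Traf3ip2 level against the mean of 10 epithelial genes (both log2 scaled intensity), with 1 point per tumor. Transplants of series 32, 34 and 42 have their own symbols and reach epithelial means under 6, other transplants are grey, and open triangles are primary tumors. Primary tumors with epithelial means near 10 reach Traf3ip2 levels above 9.5, where no transplant lies.

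The epithelial mean and Traf3ip2 are given side by side for the lines with the widest gaps and for series 10 and 34. In series 17 the epithelial mean was 9.49 in transplants and 10.29 in the primary tumor, with a Traf3ip2 difference of -2.32 on the log2 scale. In series 25R it was 10.16 in transplants and 10.43 in the primary tumor, with a Traf3ip2 difference of -2.16. In series 25L the epithelial mean was 10.13 in transplants and 9.71 in the primary tumor, with a Traf3ip2 difference of -1.94 on the log2 scale. In series 13 the epithelial mean was 10.36 in transplants and 10.18 in the primary tumor, with a Traf3ip2 difference of -1.88. In series 10 it was 10.27 in transplants and 9.78 in the primary tumor, with a Traf3ip2 difference of -0.75. In series 34 it was 7.60 in transplants and 10.70 in the primary tumor, with a Traf3ip2 difference of -0.55. The transplants lay above the primary tumor in epithelial mean in series 25L, 13 and 10 and below it in every other series. For series 32, 36, 33, 19 and 42 the epithelial differences were -2.81, -0.75, -0.25, -0.12 and -0.07. The Traf3ip2 differences of these series were -1.26, -0.26, -1.07, -0.70 and -0.59. The part of epithelial content in the Traf3ip2 difference was not tested. Over the 65 arrays, with line means removed, Pearson r with Traf3ip2 was 0.50 for the epithelial mean. It was -0.24 for 8 fibroblast genes, -0.22 for 8 macrophage genes, -0.30 for 9 T and NK cell genes, -0.26 for 4 endothelial genes, -0.12 for 5 skeletal muscle genes, 0.02 for 3 adipocyte genes and -0.21 for 1 B cell gene.

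Genes that follow Traf3ip2 were ranked by Pearson r over the 65 arrays after each gene's line means were removed. Arrays of a line share their descent, so r is given as a description. Over 8498 other tested genes the median r was -0.03, the 5th to 95th percentiles spanned -0.45 to 0.53, and 50 genes exceeded 0.7. The 10 genes with the highest r were Rev3l (0.854), Zscan26 (0.827), Nsmf (0.814), Hsd17b11 (0.798), Inpp4a (0.792), Msi2 (0.787), Jmjd1c (0.785), Fam234a (0.778), Kdm3b (0.762) and Zfp644 (0.761). Since Traf3ip2 was chosen for its gap between transplants and primary tumors, genes with such a gap score high by construction. All 10 had a lower mean in transplants than in primary tumors, by 0.22 in Kdm3b to 0.84 in Hsd17b11 on the log2 scale.

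Kdm3b and Jmjd1c belong to the family of histone H3 lysine demethylases, and Zscan26 and Zfp644 are zinc finger proteins. Msi2 (Musashi) binds RNA and Inpp4a removes a phosphate from phosphoinositides. Hsd17b11 is a dehydrogenase of lipid droplets that acts on steroids. Over the transplants alone r was 0.605 for Jmjd1c to 0.775 for Msi2, where 95% of genes lay below 0.608. Over the primary tumors alone r was 0.655 for Inpp4a to 0.947 for Rev3l, where 95% of genes lay below 0.757. Msi2, Hsd17b11, Inpp4a, Fam234a and Zfp644 had a positive r within each of the 11 lines. In 2 lines r was negative for Rev3l, Zscan26 and Jmjd1c, and in 1 line for Nsmf and Kdm3b. The lowest of these values was -0.955 for Jmjd1c. Of the 10 genes, 9 have a RefSeq promoter in the table used. The NF-kB consensus and TGANTCA are each in 0 of the 9, against 7.51% and 7.33% of all promoters. At such shares a count of 0 among so few promoters sets them apart from neither Traf3ip2 nor other genes. The E-box is in 1 of the 9 (Msi2) and the ETS site in 1 (Zscan26), against 6.42% and 8.75%.

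The 10 genes most opposed to Traf3ip2 were Mybl2 (-0.737), Pgk1 (-0.729), Arpc1b (-0.697), Vim (-0.697), Tpi1 (-0.685), Fam111a (-0.675), Rab35 (-0.670), Ube2m (-0.670), Adrm1 (-0.667) and Tk1 (-0.659). Pgk1 and Tpi1 are glycolytic enzymes. Mybl2 is a transcription factor of dividing cells, and Tk1 is the thymidine kinase of cells in S phase. Vim, the intermediate filament of mesenchymal cells, averaged 11.57 ± 0.74 over the transplant means and 10.61 ± 1.04 over the primary tumors (SD, n = 11 each). Mybl2 averaged 7.10 ± 0.54 over the transplant means and 6.50 ± 0.69 over the primary tumors (SD, n = 11 each), and its r with Traf3ip2 was negative within each of the 11 lines. Adrm1 had an r of -0.22 over transplants alone and -0.87 over primary tumors alone. Of the opposed genes it had the weakest relation among transplants. Within single lines r was positive in 2 lines for Vim (up to 0.88) and for Tk1 (up to 0.29). In 1 line it was positive for Fam111a (0.78) and for Ube2m (0.03).

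Rev3l, the catalytic subunit of DNA polymerase zeta that copies past damaged bases, followed Traf3ip2 most closely (probe set 1372266_at). It averaged 7.72 ± 0.89 in primary tumors, 7.12 ± 0.44 at transplant 1, 6.96 ± 0.37 at transplant 2, 6.93 ± 0.35 at transplant 3, 6.96 ± 0.37 at transplant 4 (SD, n = 11 each) and 6.86 ± 0.47 at transplant 5 (SD, n = 10). Series 25L had Rev3l at 6.90 to 7.54 in transplants 1 to 5, with a median of 7.03, against 9.19 in its primary tumor. Series 25R had 7.14, 7.44, 6.97, 7.13 and 7.19, against 8.70 in its primary tumor. Series 13 had 7.70, 6.94, 6.84, 6.81 and 7.14, against 8.42 in its primary tumor, and series 17 had 7.48, 7.37, 7.27, 7.02 and 7.03, against 8.37. These are the 4 lines with the widest gaps in Traf3ip2, and their primary tumors were the 4 highest for both genes.

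**Figure D3:**
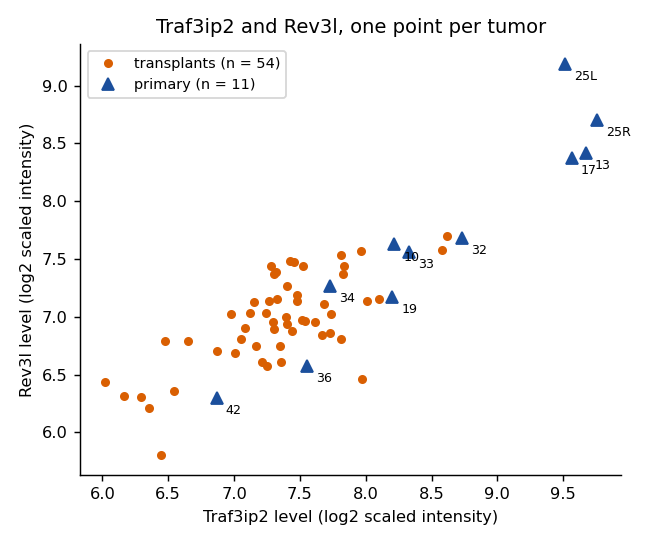
Rev3l level against Traf3ip2 level (both log2 scaled intensity) in 65 tumors, with orange points for 54 transplants and blue triangles for 11 primary tumors, labelled by series. The primary tumors of series 13, 17, 25L and 25R stand apart at the upper right, with Traf3ip2 above 9.5 and Rev3l above 8.3.

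Rev3l was lower in transplants than in the primary tumor in 8 of 11 lines, and it was higher in series 19 (0.29), 36 (0.22) and 42 (0.03) on the log2 scale. Within lines, r between Rev3l and Traf3ip2 had a median of 0.888, lay between 0.612 and 0.977 in 8 lines, and was 0.13 in series 36, -0.38 in series 42 and -0.40 in series 19. Among the 8498 genes Rev3l ranked first for r over all arrays, the fifth over the primary tumors alone (0.947) and 170 over the transplants alone (0.686). Without the 2 arrays farthest from the median, the primary tumors of series 17 and 25R, its r was 0.811. After the Gapdh ratio was regressed out of both genes it was 0.835. The fitted log2 difference of Rev3l was -0.76 ± 0.13 (SE) for transplants minus primary and -0.88 ± 0.17 (SE) for transplant 5 minus primary, given without a test because it was picked for its likeness to a gene chosen on those comparisons.

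The 10 nearest measured genes on chromosome 20, 5 on each side, were examined for the same pattern, of which 9 passed the filter on low values. In order they are Frk, Hdac2, Marcks, Lama4, Fyn, Traf3ip2 itself, Rev3l, Naglt1, Slc16a10, Gtf3c6 and Amd1. Fyn, a Src family kinase and the nearest measured gene before Traf3ip2, had an r of -0.28 with it, and Naglt1, the next measured gene after Rev3l, had an r of -0.30. Besides Rev3l, 8 neighbours were tested, and 1 of them passed the limma test for transplants minus primary, against 9.5% of all tested genes. That gene was Marcks, a substrate of protein kinase C at the cell membrane. Marcks averaged 9.89 ± 0.33 over the transplant means and 10.33 ± 0.41 over the primary tumors (SD, n = 11 each), and it was lower in 11 of 11 lines (log2 difference -0.44 ± 0.08 SE, limma adjusted p = 0.000491). At transplant 5 Marcks was again the 1 of 8 that passed, against 14.1% of all tested genes (-0.63 ± 0.11 SE, limma adjusted p = 0.000207). Its r with Traf3ip2 was 0.61. For the slope, limma called 0 of the 8 neighbours by adjusted p, against 4.82% of all tested genes. Of the 8, 4 had an unadjusted p below 0.05, and the matching share of all tested genes is not given here.

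**Figure D4:**
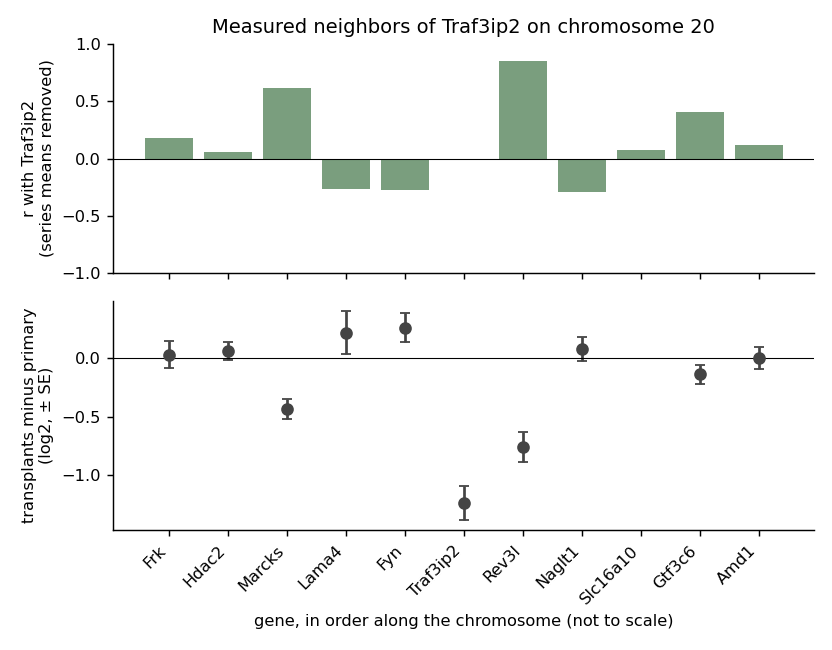
Upper plot: Pearson r with Traf3ip2 over 65 arrays, line means removed, for the 5 nearest measured genes on each side of it on chromosome 20. Lower plot: fitted log2 difference of transplants minus primary with its SE, where Slc16a10 has no point because it was below the filter. Rev3l and Marcks lie below 0 with r of 0.85 and 0.61, and Fyn and Naglt1, the closest others, have r below 0.

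Most other genes of the pathway did not pass the test between transplants and primary tumors. Of 111 listed pathway genes, 78 were measured and 67 tested. For transplants minus primary, 4 of the 67 (5.97%) passed the limma test, 1 higher and 3 lower, against 9.5% of all tested genes. Their median log2 difference was 0.004, and that of all tested genes was 0.01. For transplant 5 minus primary 8 passed (11.9%), 5 higher and 3 lower, against 14.1% of all genes, and for the slope 4 passed (5.97%), 1 rising and 3 falling, against 4.82%. Between lines, 59 of the 67 (88.1%) differed, against 83.5% of all genes. The median r of the 67 genes with Traf3ip2 was 0.007, with a range of -0.48 in Dusp1 to 0.61 in Muc1. The calls described next numbered 16 over the 3 generation comparisons. With no replicate block limma kept 0 of them, and with 1 value per series it kept 1 (Muc1 at transplant 5, limma adjusted p = 0.0444). With array weights limma kept 1 (Tnip1, limma adjusted p = 0.0356). Over all tested genes those 3 settings called 85, 135 and 331 for transplants minus primary, against 807 in the main fit. At transplant 5 they called 37, 133 and 307, against 1197.

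Among interleukin 17 receptors and ligands, limma called 0 of 4 tested genes in each of the 3 comparisons, where 1, 1 and 1 had an unadjusted p below 0.05 for transplants minus primary, transplant 5 and the slope. Of all tested genes limma called 9.5%, 14.1% and 4.82% by adjusted p, and their unadjusted shares are not given here. Il17ra, the shared receptor subunit, averaged 7.40 ± 0.21 over the transplant means and 7.20 ± 0.19 over the primary tumors (SD, n = 11 each), with a limma adjusted p of 0.161. Tnfsf13, the ligand APRIL of the BAFF family, fell over the transplants with a slope of -0.17 ± 0.05 (SE) per transplant (limma adjusted p = 0.0354). That call was lost without series 32, 34, 36 or 42 in turn (adjusted p = 0.0512 to 0.196).

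Of 16 tested TRAF proteins and Act1 partners, 1 (6.25%) passed for transplants minus primary, 1 for transplant 5 and 1 for the slope. Among all tested genes 9.5%, 14.1% and 4.82% passed. Traf3 passed for both transplants minus primary and transplant 5. Traf3, the ubiquitin ligase that gave the gene its name, averaged 7.43 ± 0.18 over the transplant means and 7.71 ± 0.25 over the primary tumors (SD, n = 11 each), lower in 10 of 11 lines. Its log2 difference was -0.28 ± 0.07 (SE, limma adjusted p = 0.0117), and it stayed past the threshold without any 1 line (adjusted p up to 0.0436). At transplant 5 its limma adjusted p was 0.0446, and that call was lost without series 10, 13, 17, 32, 33, 34, 36 or 25R in turn (adjusted p = 0.055 to 0.203). Traf4 fell over the transplants (slope -0.09 ± 0.03 SE, limma adjusted p = 0.0453), a call lost without series 13, 17, 32, 34, 36 or 25R in turn (adjusted p = 0.0632 to 0.256). Map3k7, the kinase TAK1 downstream of TRAF6, was at 7.84 ± 0.24 in transplants and 7.86 ± 0.18 in primary tumors (SD, n = 11 each). Traf6 and Il17rc are not among the genes measured here.

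In the IKK and NF-kB core, 1 of 8 tested genes (12.5%) passed, at transplant 5, against 14.1% of all tested genes. Chuk, the kinase IKK alpha, rose there by 0.25 ± 0.08 (SE, limma adjusted p = 0.0347). The call was lost without series 13, 17, 34, 36, 42 or 25L in turn (adjusted p = 0.0516 to 0.119). The log2 differences of transplants minus primary were -0.03 ± 0.08 (SE) for Ikbkb, 0.15 ± 0.09 for Nfkb1 and 0.08 ± 0.05 for Rela, and none of the 3 passed the limma test. Of 12 tested MAP kinases and AP-1 or C/EBP factors, 1 (8.33%) passed at transplant 5, against 14.1% of all tested genes. This was Fosl1, a FOS family member, which rose by 0.78 ± 0.26 (SE, limma adjusted p = 0.0364). The call was lost without series 17, 33, 34, 36 or 42 in turn (adjusted p = 0.0548 to 0.108).

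Of 6 tested genes that brake the pathway, 1 passed for transplants minus primary and 1 for transplant 5. That is 16.7% in each, against 9.5% and 14.1% of all tested genes. Tnip1, a partner of the ubiquitin editor A20, was lower in transplants by a log2 difference of -0.29 ± 0.09 (SE, limma adjusted p = 0.0322), in 9 of 11 lines. That call was lost without series 13, 17, 32, 33, 36 or 25R in turn (adjusted p = 0.0546 to 0.108). Dusp1, a phosphatase of MAP kinases, rose at transplant 5 by 0.84 ± 0.25 (SE, limma adjusted p = 0.0179) and was higher in 9 of 10 lines, and without series 17 its adjusted p was 0.0812. For transplants minus primary the limma adjusted p of Dusp1 was 0.13, and that of Tnip1 at transplant 5 was 0.282. Nfkbia, the inhibitor of NF-kB, was at 8.44 ± 0.50 in transplants and 8.83 ± 0.78 in primary tumors (SD, n = 11 each, limma adjusted p = 0.107). Tnfaip3 (A20) is not among the genes measured here.

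Of 20 tested target genes of interleukin 17, 2 (10%) passed for transplants minus primary, 4 (20%) for transplant 5 and 2 (10%) for the slope. Among all tested genes 9.5%, 14.1% and 4.82% passed. Muc1, a mucin of the apical epithelial surface, had the highest r with Traf3ip2 in the pathway lists. It averaged 7.23 ± 0.95 over the transplant means and 7.89 ± 0.80 over the primary tumors (SD, n = 11 each). Its log2 difference was -0.68 ± 0.22 (SE, limma adjusted p = 0.0385), lost without series 17, 32, 33, 34, 36 or 25R in turn (adjusted p = 0.0617 to 0.158). At transplant 5 Muc1 was lower in 10 of 10 lines, by -1.14 ± 0.29 on the log2 scale (SE, limma adjusted p = 0.0065), and no single line ended that call (adjusted p up to 0.0285). Its slope of -0.29 ± 0.06 (SE, limma adjusted p = 0.0132) was lost without series 32, 34 or 36 in turn (adjusted p = 0.0743 to 0.106). Of 10 tested epithelial genes, limma called 5 lower at transplant 5 (50%, against 14.1% of all tested genes). For the slope 7 of 10 were called falling (70%, against 4.82%). Over all tested genes the slope calls fell from 410 to 7, 4 and 3 without series 32, 34 and 36. The part of the epithelial genes in the Muc1 result was not tested.

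S100a9, a calcium-binding protein abundant in neutrophils, was higher in transplants, at a mean of 7.42 ± 1.27, against 6.23 ± 2.01 in primary tumors (SD, n = 11 each), with 5 of 11 primary tumors at the floor. Its log2 difference was 1.19 ± 0.39 (SE, limma adjusted p = 0.0453), and leaving out series 10, 13, 17, 32, 33, 34, 25L or 25R in turn ended the call (adjusted p = 0.0571 to 0.14). It was also lost in 9 of 11 other settings, among them another floor, no floor, no filter, no rescaling and 25L with 25R averaged, and with the Gapdh covariate its limma adjusted p was 0.16. At transplant 5 it was 1.73 ± 0.52 (SE, limma adjusted p = 0.0214), lost without series 13, 17, 32, 33, 34 or 25R in turn (adjusted p = 0.0504 to 0.0624). Lcn2, an iron-carrier-binding protein of epithelia and neutrophils, went the other way at transplant 5, with -1.75 ± 0.61 (SE, limma adjusted p = 0.0444), lost without series 17, 32, 34, 36 or 42 in turn (adjusted p = 0.0548 to 0.188). At transplant 5 Lcn2 was lower in 7 of 10 lines, and 4 arrays, 0 of them primary, had it at the floor. Its median was 12.44 over all transplants and 12.22 over the primary tumors. The parts of neutrophil and epithelial content were not tested. Timp1, an inhibitor of metalloproteinases, rose at transplant 5 by 1.03 ± 0.31 (SE, limma adjusted p = 0.0213), lost without series 32 or 34 in turn (adjusted p = 0.0501 to 0.0648). Its slope of 0.23 ± 0.07 (SE, limma adjusted p = 0.0442) was lost without series 17, 19, 32, 34, 36 or 25L in turn (adjusted p = 0.0508 to 0.201). Cxcl1, a neutrophil chemokine and a classical target, was at 7.24 ± 0.61 in transplants and 6.97 ± 1.64 in primary tumors (SD, n = 11 each, limma adjusted p = 0.671). Il6 was below the filter, with 42 of 65 arrays at the floor.

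**Figure D5:**
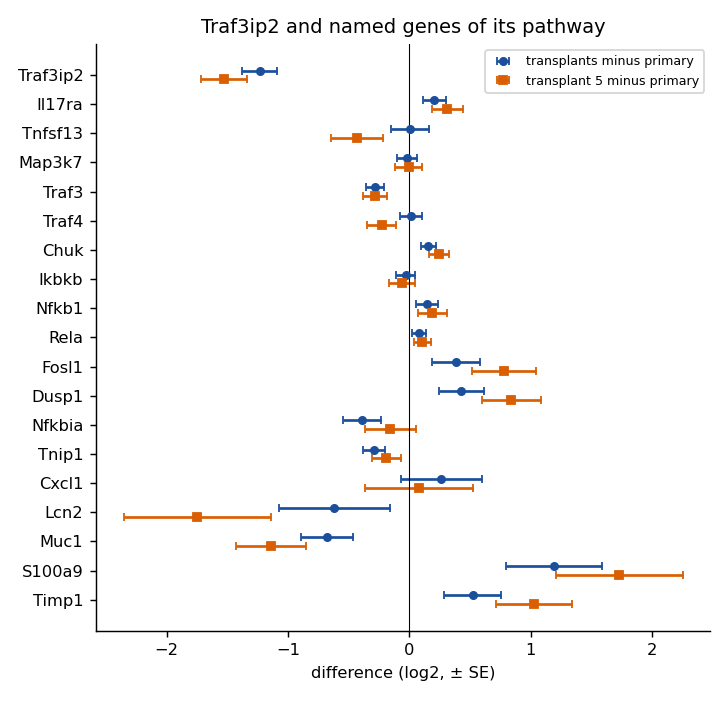
Fitted log2 differences with their SE for Traf3ip2 and 18 named pathway genes, with blue circles for transplants minus primary and orange squares for transplant 5 minus primary. Traf3ip2 lies at -1.23 and -1.53, Il17ra, Map3k7, Ikbkb, Nfkb1 and Rela lie within 0.32 of 0, and Lcn2, Muc1 and S100a9 lie farther out with wider error bars.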

How the data were processed

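Frozen tumor tissue gave total RNA, of which 6 µg was made into biotin-labelled cRNA for each Affymetrix array, per the labels' protocols. The deposited files hold a linear intensity for each probe set (1 to 12011), and the authors' summarisation and normalization are not stated in the labels.

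After 57 control probe sets were left out, arrays were brought to a common median of 162, values under the pooled 10th percentile were raised to it, and log2 of the deposited intensities was taken. Each gene was read from its brightest probe set with 1 symbol. Of 15866 probe sets, 12783 had 1 symbol, 312 several and 2771 none, and 12748 matched RefSeq gene identifiers. Genes with a mean log2 below 6.35, the lowest 25% of probe sets, were not tested.

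Tests used limma 3.58.1 in R 4.3.3 (lmFit, eBayes, two-sided, Benjamini-Hochberg over 8499 genes, threshold 0.05), with terms for generation and for series (the replicate block). Arrays of 1 series descend from 1 tumor: their deviations correlated at a mean of 0.38 within and -0.04 between series, and 50 of 65 arrays correlated best with their own series. The main fit counts each transplant of a line as a separate array, beside 1 primary tumor per line. The labels do not say whether tumors of different lines came from different rats, and p-values measure only the spread between these arrays.

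Traf3ip2 and the gene lists were chosen with earlier results of these data known. Named genes were the pathway genes called in a generation comparison, 13 core pathway genes, the 10 genes most like and most opposed to Traf3ip2, and the 5 measured neighbours on each side.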

Additional observations from a re-analysis of the deposited data

How the results depend on the processing

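Traf3ip2 kept its direction under all 23 alternatives of each comparison. Since it was selected for this gap in the same arrays, that only describes the processing. A changed filter leaves its own estimate as it was. Its log2 difference of transplants minus primary was -1.27 to -0.95, or -1.33 to -1.12 leaving out 1 series at a time. That of transplant 5 minus primary was -1.64 to -1.16, or -1.61 to -1.44 leaving out 1 series. Its slope was -0.16 to -0.11, or -0.17 to -0.11 leaving out 1 series. The counts of pathway genes past limma's threshold depended on the settings, and the causes were not tested. With no replicate block, limma called 0 genes for transplants minus primary, 0 for transplant 5 and 0 for the slope. In that setting 7, 8 and 8 had an unadjusted p below 0.05. Of all 8499 tested genes limma then called 85 (1%), 37 (0.435%) and 0, against 9.5%, 14.1% and 4.82% in the main fit. With 1 value per series the pathway counts were 0, 1 and 0, where 13, 13 and 5 had an unadjusted p below 0.05. Over all tested genes the calls were 135 (1.59%), 133 (1.56%) and 0. With array weights the pathway counts were 1, 1 and 0, where 10, 9 and 10 had an unadjusted p below 0.05. Over all tested genes the calls were 331 (3.89%), 307 (3.61%) and 4 (0.0471%). The Gapdh covariate left 1 pathway gene for transplants minus primary and 5 for transplant 5, with 4.79% and 10.2% of all tested genes called. A filter at the median left 2 and 5 of 50 tested pathway genes, with 11% and 16.4% of all tested genes called. Averaging 25L and 25R left 2 for transplants minus primary, and no filter left 2 for the slope. The shares of all tested genes were 7.8% and 2.55%. Without the array of lowest median, an alternative added after seeing the data, 5 were called at transplant 5 and 1 for the slope. The shares of all tested genes were then 11.1% and 0.847%. Leaving out 1 series at a time gave 1 to 5 for transplants minus primary, 2 to 8 for transplant 5 and 0 to 7 for the slope. All-gene shares then ran from 5.74% to 9.7%, from 8.99% to 14.9% and from 0.0353% to 9.55%. The slope count was 0 without series 32, 34 or 36, where 12, 10 and 13 had an unadjusted p below 0.05. Over all tested genes the slope calls were then 7, 4 and 3. Shares of all tested genes by unadjusted p are not given here. Of the 16 calls of single pathway genes, 15 were lost with 1 value per series, 16 with no replicate block, 15 with array weights and 6 with the Gapdh covariate. Counts for differences among series stayed within 1.5 times of 59. Marcks was called under every setting except no replicate block (limma adjusted p = 0.0889 for transplants minus primary and 0.0644 for transplant 5). The correlations of the 20 named genes with Traf3ip2 kept their sign under every alternative run, and 9 of 440 values moved beyond the SD over series. Single lines were not among these alternatives, and within them some signs reversed, as given above. That SD was wide for some genes, from 0.15 for Fam234a to 0.62 for Vim. Of the 9, 7 arose with series and generation means removed, which takes out the gap on which Traf3ip2 was chosen. There r was 0.574 (Inpp4a) to 0.736 (Rev3l) for the followers. For the opposed genes it was -0.645 (Pgk1) to -0.318 (Rab35), with -0.389 for Vim. The probe set alternative was not run, since Traf3ip2 has 1 probe set.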

Other observations

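Among 1684 probe sets without a gene symbol, 1373110_at followed Traf3ip2 more closely than any named gene did, with a Pearson r of 0.88 over 65 arrays after line means were removed. It averaged 6.91 in transplants and 8.51 in primary tumors on the log2 scale. Of the 1684, 3 had an r at least as high as the tenth named gene, Zfp644. Their genes are not annotated in the tables used here.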
